A study of Mus musculus with 12 samples.

Results

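Genes of nitric oxide signalling were followed through leukocytes of mouse melanomas: Gucy1a1 and Gucy1b1, which encode the alpha 1 and beta 1 subunits of soluble guanylate cyclase, Prkg1, which encodes cGMP-dependent protein kinase I, and Pde5a, which encodes a phosphodiesterase that breaks down cGMP. These 4 genes, of 32285 in the count matrices, were picked by symbol with their differences between cell types and between the groups already known, so their own levels and differences are given as a description, with no test. All 6 mice were Rag1-deficient (B6.129S7-Rag1tm1Mom/J), a strain that makes no mature T or B cells, and all carried a B16-F10 melanoma placed in the skin. Each mouse then received Pmel Thy1.1 CD8+ T cells, which carry a receptor for a melanocyte antigen, by a retro-orbital route. In the 3 control mice those T cells had been exposed in culture to vehicle, and in the 3 CAL-101 mice to idelalisib (CAL-101), which blocks phosphoinositide 3-kinase delta. The mice themselves were not given the drug, as far as the labels say. The sources used here do not give the age and sex of the mice, the culture dose and time, the day of harvest, or whether the T cells of a group came from 1 culture or several.

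Soluble guanylate cyclase is a heme-containing dimer of an alpha and a beta subunit, and both are needed for activity. Nitric oxide binds the heme and switches the enzyme on, the cGMP it makes activates cGMP-dependent kinase, ion channels and some phosphodiesterases, and phosphodiesterases such as the product of Pde5a end the signal. The system is best known from smooth muscle and platelets, where it relaxes vessels and restrains aggregation. It is less often described in T cells.

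Live CD45.2+ cells sorted from a part of each tumour were profiled as single cells, and 45477 cells with the authors' cluster number and cell type label were used, 6152 to 9147 per mouse. Each library held 75716841 to 97933109 RNA molecules counted by unique molecular identifiers (UMIs). Cells labelled T cells, CD8+ T cells or CD4+ T cells were summed as T cells (32861), beside 11687 NK cells, 414 neutrophils, 360 monocytes and 127 dendritic cells. The summed T cell markers (Cd3e, Cd3d, Cd3g, Cd8a, Cd8b1, Trac) stood at 2745 to 3387 UMIs per 1000000 RNA UMIs (CPM) in T cells and at 184 to 310 CPM in NK cells. Libraries differed in makeup: T cells were 53.3% of cells in control mouse 2 and 90.5% in CAL-101 mouse 2. Between exactly 2 libraries, 249 cell barcodes were shared.

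The genes of the 2 cyclase subunits are neighbours, so their positions and upstream letters are given first. In RefSeq's mm10 assembly (GRCm38.p6) Gucy1b1 spans chr3:82032004-82074711 and Gucy1a1 chr3:82092427-82145946, both on the minus strand. The 17715 bases between them hold 0 annotated genes in the RefSeq table. Gucy1b1 lies downstream of Gucy1a1, so the gap lies between the end of Gucy1a1 and the start of Gucy1b1. Pde5a lies on the same chromosome at chr3:122729158-122859374 and Prkg1 at chr19:30564487-31765268. The 250 bases before the Gucy1b1 start (chr3:82074712-82074961, minus strand, all in the gap) and the last 30 bases before a Gucy1a1 start (chr3:82145651-82145680, minus strand) are shown because the letters CAGCTG occur in the 250 bases before both starts. That Gucy1a1 start lies inside the annotated gene, downstream of the start of a longer transcript. The 250 bases before another Gucy1a1 start (chr3:82145074-82145323) held no CAGCTG. Capitals mark every match to the 8 motifs searched.
Gucy1b1: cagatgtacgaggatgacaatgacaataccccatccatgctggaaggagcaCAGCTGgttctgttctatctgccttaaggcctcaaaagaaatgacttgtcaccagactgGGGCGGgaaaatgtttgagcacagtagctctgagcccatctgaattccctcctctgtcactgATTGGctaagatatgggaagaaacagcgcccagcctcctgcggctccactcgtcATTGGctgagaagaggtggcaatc
Gucy1a1: cgcatcatggtgggttcgctCAGCTGtttg

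Counted backwards from the start, the E-box CAGCTG begins at -199 before Gucy1b1 and at -10 before the Gucy1a1 start shown. Of 32851 mouse promoter windows of this length, 13% hold it. The Gucy1b1 window also holds a GC box (GGGCGG, in 32.7% of windows) and 2 reversed CCAAT boxes (ATTGG, in 33.8% of windows). On both strands, 0 matches were found before any of the 4 genes for TCF/LEF (CTTTGA), FOXO (GTAAACA), the cAMP response element (TGACGTCA), AP-1 (TGANTCA) or RUNX (TGTGGT). These are letter matches in a short window and no measure of binding.

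Over both groups together, the cyclase subunits were read mostly in T cells. Of 4767 Gucy1a1 UMIs in all cells, 4578 (96.0%) lay in T cells, which supplied 78.5% of all RNA UMIs. Of 2094 Gucy1b1 UMIs, 2007 (95.8%) lay there. NK cells, with 20.4% of RNA UMIs, held 181 Gucy1a1 and 84 Gucy1b1 UMIs. In control mice alone, Gucy1b1 gave 98, 69 and 83 UMIs in T cells and 8, 29 and 8 in NK cells. Its mean level was 1.23 CPM in control T cells, 0.537 CPM in control NK cells and 1.23 CPM in CAL-101 NK cells. The 414 neutrophils held 1 Gucy1a1 UMI and the 127 dendritic cells 0, and both held 0 of Gucy1b1, which allows shares of cells with a UMI of up to 0.725% and 2.36%. The 360 cells labelled monocytes held 7 and 3 UMIs. The other 2 genes were spread differently: Pde5a had 407 UMIs in T cells and 348 in NK cells, and Prkg1 had 323 in T cells, 746 in NK cells, 267 in monocytes and 163 in dendritic cells.

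**Figure D1:**
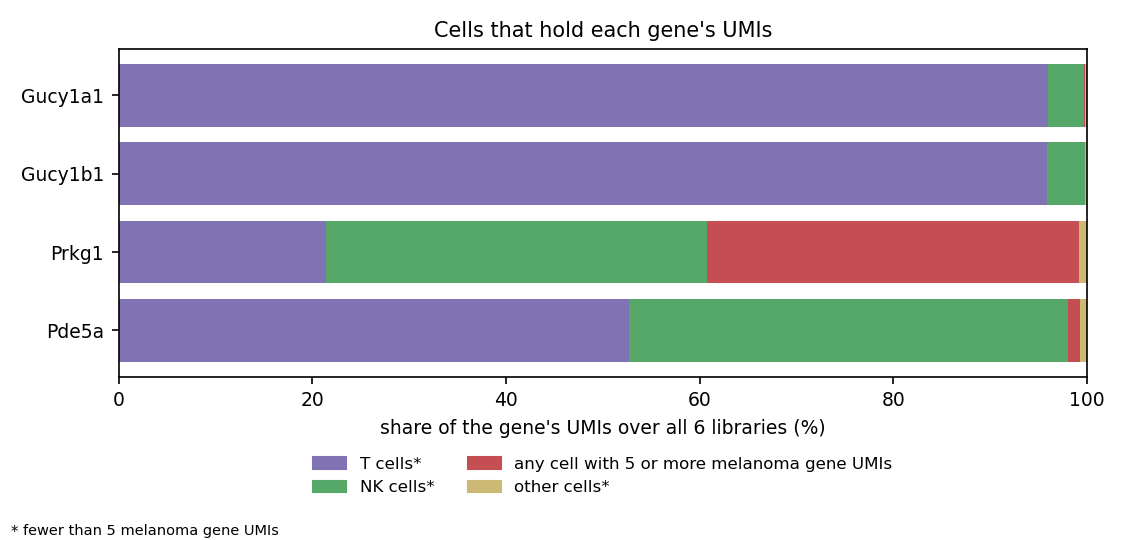
Share of each gene's UMIs (x axis, %) that lay in T cells, NK cells, cells with 5 or more UMIs of 6 melanoma genes, and other cells, over all 6 libraries. T cells held 96.0% of Gucy1a1 UMIs, while 38.4% of Prkg1 UMIs lay in the cells with melanoma gene UMIs.

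In T cells both subunits stood higher in every CAL-101 mouse than in any control mouse. Gucy1a1, the alpha subunit, stood at 5.37, 8.97 and 5.49 CPM under control conditions, against 19.7, 12.5 and 14.6 CPM after CAL-101. Gucy1b1, the beta subunit, stood at 1.24, 1.27 and 1.18 CPM under control conditions, against 11.05, 7.27 and 6.80 CPM after CAL-101. The control values of Gucy1b1 differed little among themselves, and CAL-101 mouse 1 was highest for both subunits. The ratio of group means was 2.36 for Gucy1a1 (6.61 ± 2.04 against 15.6 ± 3.68 CPM, SD, n = 3) and 6.80 for Gucy1b1 (1.23 ± 0.0437 against 8.37 ± 2.33 CPM). The fitted log2 differences (edgeR, sums per mouse) were 1.20 (SE 0.23) and 2.72 (SE 0.20).

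Pde5a was also higher in T cells of every CAL-101 mouse, at 1.71, 1.44 and 0.891 CPM against control values of 0.507, 0.606 and 0.670 CPM. Its fitted log2 difference was 1.13 (SE 0.25). Of the 92 Pde5a UMIs in T cells of CAL-101 mouse 1, 35 lay in 1 cell. Prkg1 overlapped between the groups, at 0.431, 1.21 and 0.655 CPM in control and 1.04, 0.718 and 0.749 CPM in CAL-101 T cells (log2 0.10, SE 0.36). Thus 3 of the 4 genes did not overlap between the groups in T cells, all with CAL-101 higher. Among the 16734 genes tested in T cells, 39.6% did not overlap, 24.5% with CAL-101 higher and 15.1% with CAL-101 lower. The genes were chosen on this contrast, so nothing is read from their count.

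**Figure D2:**
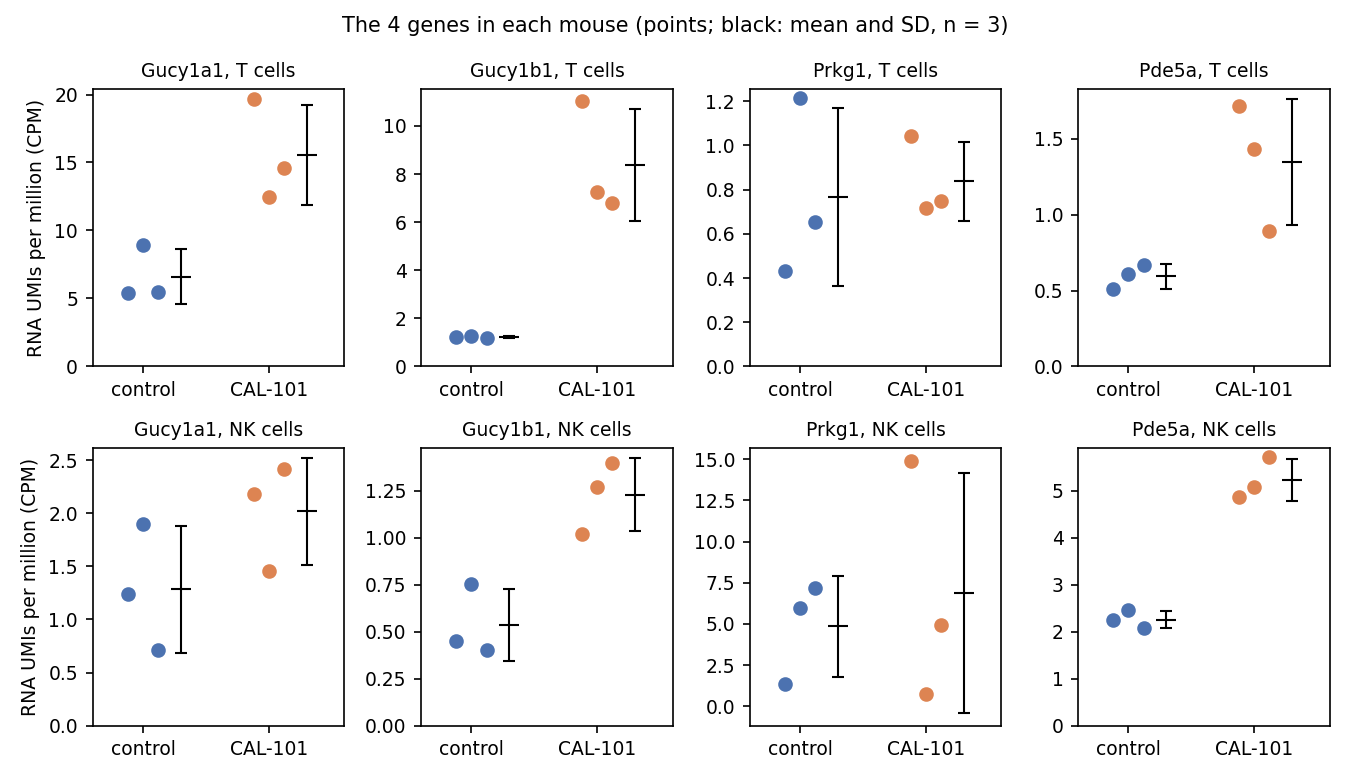
Level of each gene (y axis, CPM) in every mouse, for T cells (top) and NK cells (bottom), with the mean and SD of 3 mice in black. In T cells the control mice lay at 1.18 to 1.27 CPM for Gucy1b1 and the CAL-101 mice at 6.80 to 11.05 CPM.

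The 2 subunits did not differ by the same factor. Per Gucy1b1 UMI, control T cells held 4.33, 7.07 and 4.64 Gucy1a1 UMIs and CAL-101 T cells 1.78, 1.72 and 2.15. The means were 5.35 ± 1.503 and 1.88 ± 0.234 (SD, n = 3), with no overlap. Transcripts were tagged near the 3' end and counted once per captured molecule, so no length scaling was applied. Capture can differ between the 2 transcripts, and the ratio compares mice, not amounts of subunit.

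Because the deposited clusters of T cells differed in size between the groups (cluster 5 held 378 control and 3549 CAL-101 T cells), the subunits were also followed within clusters 1 to 5. Gucy1a1 was higher in all 3 CAL-101 mice than in all 3 control mice in each of the 5 clusters. Over all cells of cluster 1 the means were 5.65 ± 2.34 and 19.0 ± 6.97 CPM, and in cluster 2, 8.42 ± 3.71 and 16.3 ± 4.55 CPM. In cluster 3 they were 5.91 ± 1.34 and 12.01 ± 2.89 CPM, in cluster 4, 6.22 ± 1.96 and 15.0 ± 5.02 CPM, and in cluster 5, 8.74 ± 1.65 and 17.3 ± 3.17 CPM. In CAL-101 mice the order from high to low was cluster 1, 5, 2, 4 and 3, and no neighbours in it differed by more than the larger of their SDs. The fitted log2 differences on the T cells of each cluster were 1.75 (SE 0.33), 0.90 (SE 0.30), 0.94 (SE 0.23), 1.19 (SE 0.30) and 0.97 (SE 0.23).

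Gucy1b1 behaved alike in its 5 clusters, again with no overlap between the groups in any of them. Its control means lay between 0.785 ± 0.164 CPM in cluster 3 and 1.88 ± 0.201 CPM in cluster 2. Its CAL-101 means lay between 6.50 ± 0.298 CPM in cluster 3 and 9.52 ± 1.19 CPM in cluster 4. The fitted log2 differences were 2.79 (SE 0.44), 2.20 (SE 0.22), 2.93 (SE 0.22), 2.90 (SE 0.32) and 2.88 (SE 0.70) in clusters 1 to 5. The wide SE in cluster 5 goes with few control cells, in which the 3 control mice held 0.761, 2.37 and 0 CPM. Summed over clusters 1 to 5 alone, the differences were 1.16 (SE 0.24) for Gucy1a1 and 2.65 (SE 0.21) for Gucy1b1, close to those over all cells labelled T cells. Cluster 8 mixed 820 NK cells with 597 cells labelled T cells, and there Gucy1b1 was at 1.02 ± 0.505 and 3.57 ± 1.12 CPM with no overlap, while Gucy1a1 was at 4.03 ± 1.35 and 3.96 ± 1.49 CPM and overlapped.

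**Figure D3:**
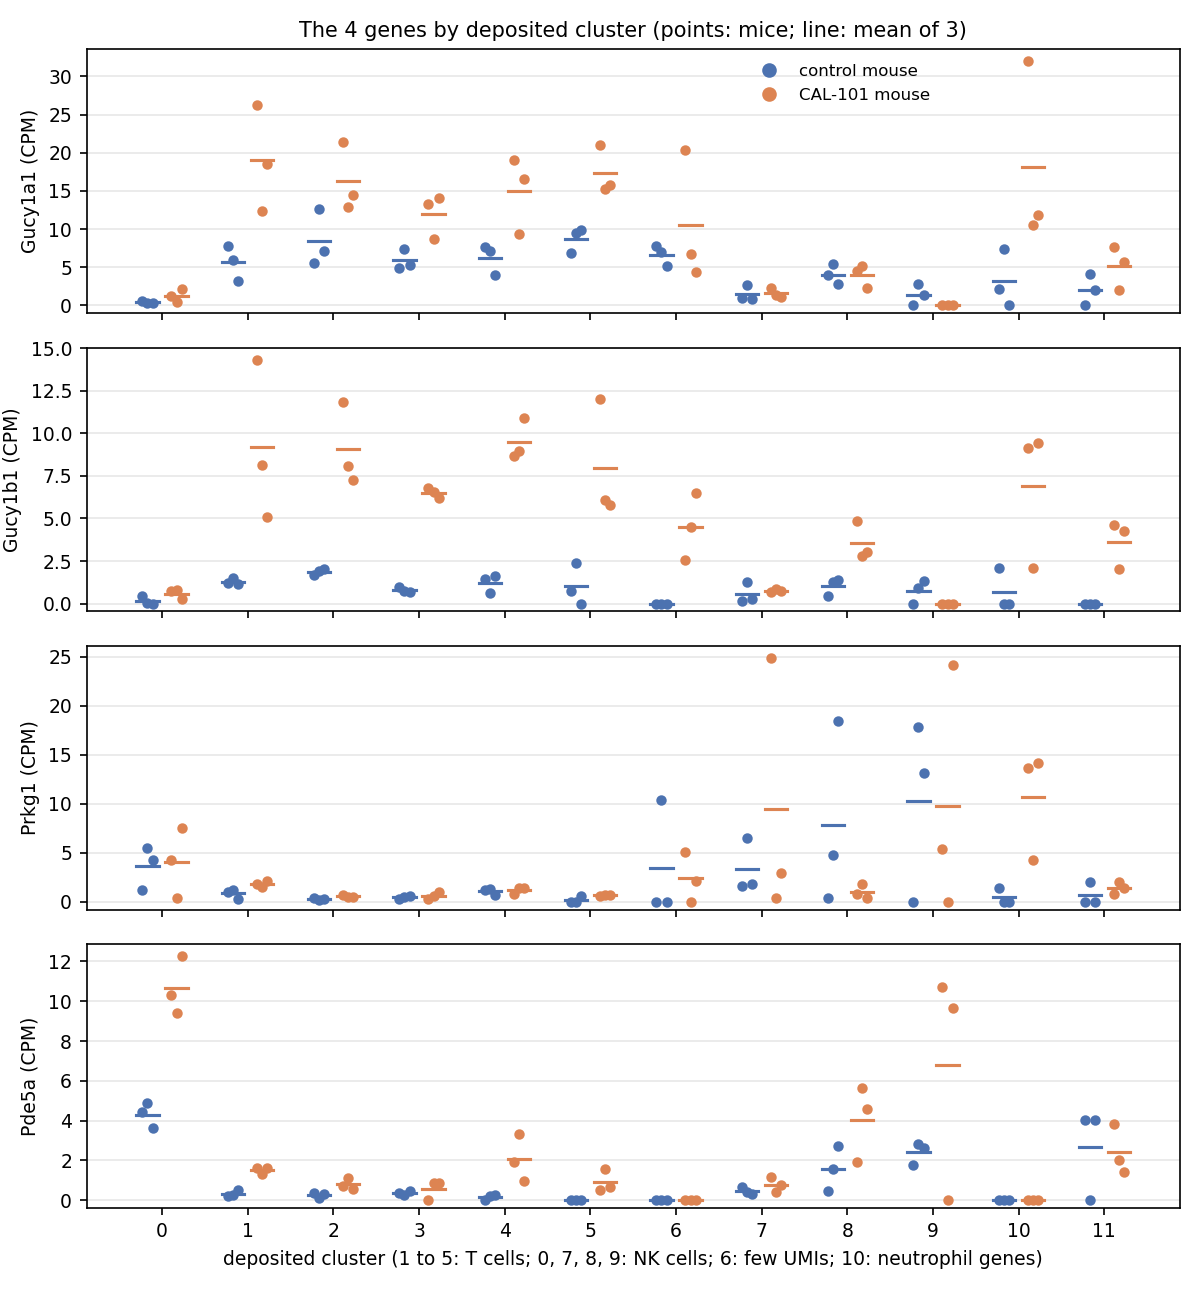
Level of each gene (y axis, CPM, all cells of a cluster) in the 12 deposited clusters with at least 20 cells in every mouse; points are mice and lines the mean of 3. In clusters 1 to 5 the CAL-101 points lie above all control points for both cyclase subunits, and Pde5a is highest in cluster 0.

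At the level of single cells, a Gucy1a1 UMI was seen in 5.27%, 7.02% and 4.24% of control T cells and in 14.7%, 10.9% and 11.97% of CAL-101 T cells. For Gucy1b1 the shares were 1.28%, 1.17% and 1.10% against 10.2%, 7.41% and 6.92%. With every cell thinned to 3000 UMIs, a step that dropped 3540 T cells of control and 3689 of CAL-101 mice, the shares were 1.54 ± 0.441% and 4.27 ± 0.821% for Gucy1a1. They were 0.284 ± 0.0817% and 2.28 ± 0.542% for Gucy1b1 (SD, n = 3). At that depth control NK cells gave 0.251 ± 0.145% for Gucy1a1 and 0.145 ± 0.0895% for Gucy1b1, from cells with a median of 7574 UMIs before thinning against 12969 in T cells, both over the 2 groups. Neutrophils gave 0 of 241 cells, which allows up to 1.24%. The thinned Gucy1b1 shares of control T cells (0.373%, 0.213% and 0.264%) overlapped those of control NK cells (0.164%, 0.224% and 0.0478%). In CPM they did not overlap, with control T cells at 1.18 to 1.27 CPM and control NK cells at 0.405 to 0.756 CPM.

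At 10000 UMIs per cell, Gucy1b1 was read more often in T cells that also held a Gucy1a1 UMI, in cluster 2 of both groups and cluster 5 of CAL-101 mice. With cells thinned to 10000 UMIs, a depth chosen after the data were seen, 13.5% of CAL-101 T cells of cluster 2 with a Gucy1a1 UMI also held Gucy1b1 (52 of 386), against 6.57% of the rest (206 of 3136). The share was higher in 3 of 3 mice. In control T cells of the same cluster the shares were 5.85% (10 of 171) and 1.71% (44 of 2570), again higher in 3 of 3 mice. In CAL-101 T cells of cluster 5 they were 14.3% (47 of 328) and 4.82% (112 of 2324), higher in 3 of 3 mice. Cluster 3 was less even, with 8.33% (8 of 96) and 5.10% (49 of 960) in CAL-101 T cells, higher in 2 of 3 mice, and 1.18% (2 of 169) and 0.482% (17 of 3524) in control T cells, higher in 1 of 3 mice. Few cells of clusters 1 and 4 reached that depth. CAL-101 T cells gave 3 of 7 against 3 of 60 in cluster 1 and 4 of 31 against 12 of 230 in cluster 4, each higher in 2 of 3 mice. Control T cells gave 0 of 2 against 0.847% in cluster 1 and 0 of 17 against 1.49% in cluster 4. Cells of a mouse are not replicates and most cells held neither gene, so these shares carry no p. At 3000 UMIs per cell the sign in CAL-101 cluster 2 was opposite, from 2 cells with both genes (1.32% against 2.68%, higher in 0 of 3 mice). Control cluster 2 then gave 2.0% against 0.468%, higher in 1 of 3 mice. Cluster 3 gave 0 of 39 against 1.54% in CAL-101 and 0 of 59 against 0.197% in control T cells. CAL-101 cluster 5 gave 4.32% against 1.57%, higher in 3 of 3 mice. At 1600 UMIs control cluster 2 gave 0 of 38 against 0.287%.

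**Figure D4:**
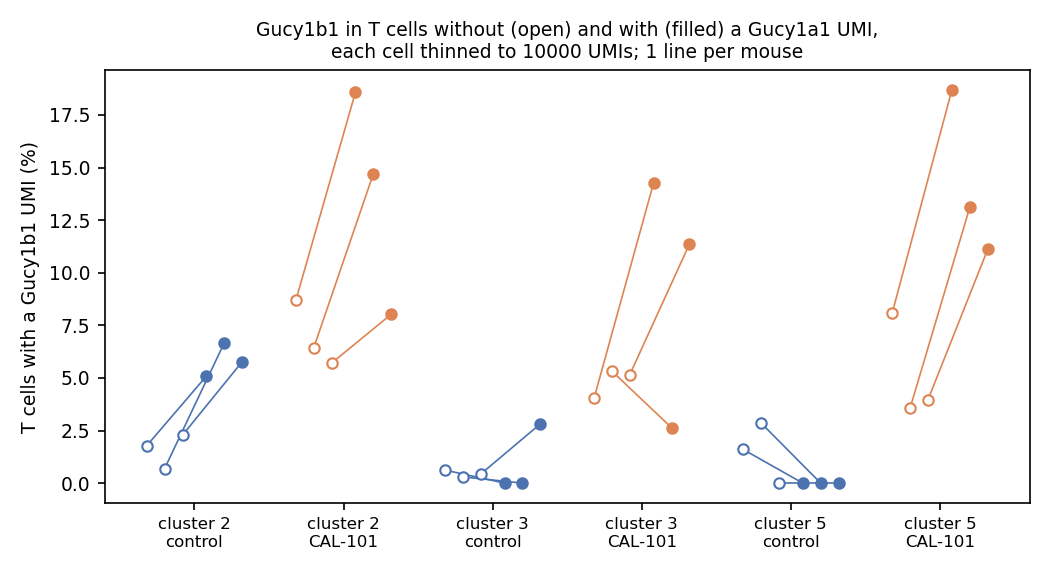
Share of T cells with a Gucy1b1 UMI (y axis, %) among cells without (open) and with (filled) a Gucy1a1 UMI, after thinning to 10000 UMIs; each line is 1 mouse. The lines rise in all 6 mice in cluster 2 and in the 3 CAL-101 mice in cluster 5; in control cluster 5 the 20 cells with Gucy1a1 held 0 with Gucy1b1.

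Soluble guanylate cyclase is abundant in platelets and smooth muscle, so the marker genes of both were summed in T cells. The 7 platelet genes summed to 32.5 to 48.4 CPM in control and 21.2 to 23.2 CPM in CAL-101 T cells, led by the integrin gene Itgb3. The 8 smooth muscle and pericyte genes summed to 4.40 to 4.80 CPM in control and 3.66 to 4.10 CPM in CAL-101 T cells, with Rgs5 at 0. Itgb3 alone averaged 29.99 CPM in T cells and 99.4 CPM in NK cells, so the first sum is mostly a gene that other leukocytes carry. The part of platelets and smooth muscle cells in the subunit levels was not tested. The 6 melanoma genes summed to 3.68 to 5.91 and 3.82 to 8.81 CPM. Without cells holding 5 or more melanoma gene UMIs, the log2 differences in T cells were 1.20 for Gucy1a1 and 2.72 for Gucy1b1.

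Pde5a, whose enzyme hydrolyses cGMP made by the cyclase, had a different home. Cluster 0, which held 7471 NK cells and 1264 cells labelled T cells, carried 390 of 768 Pde5a UMIs (50.8%) on 11.6% of RNA UMIs. Its level there was 10.3, 9.41 and 12.3 CPM after CAL-101 against 4.42, 4.86 and 3.62 CPM under control conditions, with no overlap. In the T cell clusters 1 to 5 it was lower, at 0.314, 0.170 and 0.375 CPM in control and 0.761, 1.37 and 0.670 CPM in CAL-101 mice, again with no overlap (log2 1.63, SE 0.36). Of the 407 Pde5a UMIs of cells labelled T cells, 258 lay in clusters 1 to 5. A few cells held many molecules: over all cells, 110 of the 768 UMIs lay in 10 cells. The most in 1 cell was 35, in a cluster 0 cell with a T cell label. The most was 10 in an NK cell and 18 in a T cell of clusters 1 to 5. The cell with 35 belonged to CAL-101 mouse 1, which held 129 Pde5a UMIs in cluster 0.

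In NK cells, which Rag1-deficient mice make themselves, Pde5a was at 4.85, 5.08 and 5.72 CPM in CAL-101 mice and at 2.25, 2.45 and 2.07 CPM in controls. The fitted log2 difference was 1.15 (SE 0.17), and 1.20 (SE 0.23) within the NK cells of cluster 0. Over all cells of clusters 7, 8 and 9 the groups overlapped. The control and CAL-101 means were 0.438 and 0.771 CPM in cluster 7 and 1.58 and 4.05 CPM in cluster 8. In cluster 9 they were 2.40 and 6.79 CPM. A Pde5a UMI was seen in 1.36 ± 0.192% of control and 2.77 ± 0.134% of CAL-101 NK cells. Gucy1b1 was at 0.450, 0.756 and 0.405 CPM in control and 1.02, 1.27 and 1.40 CPM in CAL-101 NK cells, with no overlap but only 84 UMIs (log2 1.00, SE 0.36). Within NK clusters 0, 7, 9 and 13 the Gucy1b1 difference was 0.40 (SE 0.56). Gucy1a1 overlapped, at 1.24, 1.90 and 0.708 CPM in control and 2.18, 1.45 and 2.41 CPM in CAL-101 NK cells (log2 0.59, SE 0.36). In NK cells 26.8% of 14028 genes tested did not overlap, 16.3% with CAL-101 higher and 10.5% with CAL-101 lower. The T cell markers in cells labelled NK cells summed to 184 to 300 CPM in control and 262 to 310 CPM in CAL-101 mice, and their part in the Gucy1b1 difference was not tested.

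Prkg1, the kinase that cGMP activates, was held by very few cells. Of its 1508 UMIs, 642 (42.6%) lay in 10 cells. Cluster 12, with 118 cells (0.259% of all), carried 579 (38.4%). Its 6 melanoma genes (Pmel, Mlana, Tyr, Dct, Tyrp1, Mitf) summed to between 5287 and 16372 CPM per mouse, although its cells carried T cell, NK cell, monocyte and dendritic cell labels. All 579 UMIs lay in cells with 5 or more melanoma gene UMIs, and the 57 other cells of the cluster held 0. The Prkg1 levels of monocytes (111 CPM) and dendritic cells (86.9 CPM) rested on such cells, which held 267 of 267 and 160 of 163 of their UMIs.

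A second set of Prkg1-rich cells held no melanoma gene UMI. Of 47 cells with 5 or more Prkg1 UMIs, 16 were cells with melanoma gene UMIs (564 Prkg1 UMIs), and 31 held 0 melanoma gene UMIs (506 Prkg1 UMIs). Of those 31, 23 were labelled NK cells, with 443 Prkg1 UMIs from 5 libraries and up to 75 in 1 cell. Prkg1 in NK cells was at 14.9, 0.726 and 4.95 CPM in CAL-101 mice and at 1.35, 5.99 and 7.18 CPM in controls, a wide and overlapping spread (log2 0.68, SE 0.65). Without cells holding 5 or more melanoma gene UMIs the difference was 0.02 (SE 0.56). In T cell clusters 1 to 5 Prkg1 was low and even, at 0.437, 0.488 and 0.469 CPM in control and 0.740, 0.718 and 0.697 CPM in CAL-101 mice (log2 0.58, SE 0.18). There the groups did not overlap, unlike in all cells labelled T cells. The Prkg1 gene spans 1200782 bases, and the sources used here do not say whether intronic reads were counted.

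The rest of the pathway was tested over 74 listed genes in 8 role groups, none of them a member. The list was chosen with earlier results of these data known, so its shares of calls in T and NK cells are a description. In T cells 58 were testable, and 5 rose and 11 fell (edgeR quasi-likelihood, adjusted p under 0.05), or 27.6% against 19.1% of all 16734 genes (9.46% higher, 9.63% lower). The median log2 difference of the list was 0.03, and that of all genes 0.00. Of the 16 calls, 2 came from the 8 phosphodiesterases specific for cAMP rather than cGMP. Of all 16, 6 held under all 14 alternatives: Nos1, Nos2, Ass1, Cyb5r3, Pde11a and Pde4a.

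Of the 3 nitric oxide synthases, Nos1 and Nos2 moved in opposite directions. Nos1, the neuronal synthase, was at 0.114, 0.129 and 0.128 CPM in control T cells and at 1.96, 0.604 and 1.61 CPM in CAL-101 T cells, which is 9, 7 and 9 UMIs against 105, 53 and 125. It rose with a log2 difference of 3.42 (SE 0.49, edgeR adjusted p = 0.00349), with no overlap between the groups. The Nos1 UMIs were spread over 248 T cells with at most 4 in 1 cell. Clusters 2, 3 and 5 each showed no overlap between the groups, while clusters 1 and 4 overlapped. Counts were small: cluster 3 held 3, 2 and 2 UMIs in control and 6, 2 and 6 in CAL-101 mice. In cluster 5 the 378 control T cells held 0. Nos2, the inducible synthase, was at 2.64, 3.33 and 2.32 CPM in control and 0.447, 0.479 and 0.646 CPM in CAL-101 T cells. It fell by 2.42 on the log2 scale (SE 0.21, edgeR adjusted p = 0.000361), with no overlap within any of clusters 1 to 5. The mean of Nos2 was higher in control neutrophils (23.4 ± 21.6 CPM), monocytes (32.2 ± 30.2 CPM) and dendritic cells (51.8 ± 77.9 CPM). Neutrophils of control mouse 2 and dendritic cells of control mouse 3 held 0 Nos2 UMIs. The neutrophil markers summed to 2.26 to 27.6 CPM in control and 3.70 to 16.2 CPM in CAL-101 T cells. In clusters 1 to 5 those markers summed to 2.18 to 6.33 and 1.46 to 1.74 CPM. Monocyte and macrophage markers in clusters 1 to 5 summed to 484 to 681 CPM in control and 582 to 846 CPM in CAL-101 mice. Ly6c2 alone averaged 659 CPM there and 218 CPM in NK cells, so this sum is mostly a gene that other leukocytes carry. The part of neutrophils, monocytes, macrophages and dendritic cells in the Nos2 difference was not tested. Nos3, the endothelial synthase, was at 0.937 ± 0.0529 and 0.960 ± 0.238 CPM and was not called.

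Among genes that regulate the synthases or supply their substrate, Ass1, which remakes arginine from citrulline with Asl, fell from 71.6 ± 14.9 to 42.6 ± 5.33 CPM (log2 -0.79, edgeR adjusted p = 0.00952). Asl fell by 0.24 and Nosip, which binds a nitric oxide synthase, by 0.25 on the log2 scale. Slc7a1, the arginine transporter, and Ddah2, which clears an inhibitor of the synthases, rose by 0.37 and 0.40. Of the partners of the cyclase, Cyb5r3, which reduces its heme, fell from 25.9 ± 1.07 to 20.6 ± 0.807 CPM (log2 -0.37, edgeR adjusted p = 0.0055). By cluster, its groups did not overlap in clusters 2 and 3 and overlapped in clusters 1, 4 and 5. The chaperone gene Hsp90aa1 rose by 0.40. The calls of Asl, Nosip, Slc7a1, Ddah2 and Hsp90aa1 were each lost under 3 to 9 of the 14 alternatives, with the same direction and adjusted p of up to 0.0988 (Asl), 0.159 (Nosip), 0.0882 (Slc7a1), 0.148 (Ddah2) and 0.093 (Hsp90aa1). All 5 were lost without control mouse 1 and without control mouse 3.

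Of 10 testable phosphodiesterases of the list that can hydrolyse cGMP, 2 fell and 0 rose, and this share of 20% was near the 19.1% of all genes. Pde11a fell from 13.2 ± 0.813 to 7.62 ± 0.890 CPM (log2 -0.83, edgeR adjusted p = 0.00167). Pde2a, which cGMP also stimulates, fell from 16.5 ± 4.74 to 7.11 ± 3.74 CPM (log2 -1.27, edgeR adjusted p = 0.036). That call was lost without control mouse 2 or 3, without CAL-101 mouse 2 or 3, and with a replicate block, within a range of -1.76 to -0.65 and adjusted p of up to 0.136. Pde2a was far higher in NK cells (141 ± 23.3 and 106 ± 15.2 CPM). The NK markers in T cells summed to 489 to 624 CPM in control and 349 to 470 CPM in CAL-101 mice, of which Klrk1 alone averaged 334 CPM. In clusters 1 to 5 these markers summed to 383 to 393 and 305 to 324 CPM, with Klrk1 at 329 CPM. There Pde2a was at 4.61 ± 0.658 and 3.04 ± 0.256 CPM, with no overlap. Those clusters held 1493 of the 4665 Pde2a UMIs of cells labelled T cells. By cluster, its groups overlapped in clusters 1, 2, 4 and 5 and did not overlap in cluster 3. The part of cell makeup in the Pde2a difference was not tested. Pde3b, which cGMP inhibits, was at 428 ± 96.9 and 397 ± 61.97 CPM and was not called (log2 -0.15). Among the 8 phosphodiesterases specific for cAMP, Pde4a fell from 16.5 ± 2.14 to 7.80 ± 0.544 CPM (log2 -1.12, edgeR adjusted p = 0.00051), with no overlap in any of clusters 1 to 5, and Pde7a fell by 0.26.

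Of 9 testable targets of cGMP and of its kinase, 1 rose, 2 fell and 6 were not called, or 33.3% called against 19.1% of all genes. Cnga1, a cyclic nucleotide-gated channel subunit, rose from 0.655 ± 0.152 to 1.28 ± 0.252 CPM (log2 0.92, edgeR adjusted p = 0.0249). Rgs2, a regulator of G protein signalling, and Hspb6, a small heat shock protein, fell by 0.46 and 0.44 on the log2 scale, although Rgs2 overlapped between the groups. Vasp, a cytoskeletal substrate of the kinase, was at 145 ± 7.82 and 156 ± 6.20 CPM and was not called (log2 0.06). Prkg2, the other cGMP-dependent kinase, was too low to be tested. The calls of Cnga1, Rgs2, Hspb6 and Pde7a were lost under 4 to 10 of the 14 alternatives, each without control mouse 1 and without CAL-101 mouse 3 among them, with adjusted p of up to 0.0964, 0.138, 0.145 and 0.0795.

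**Figure D5:**
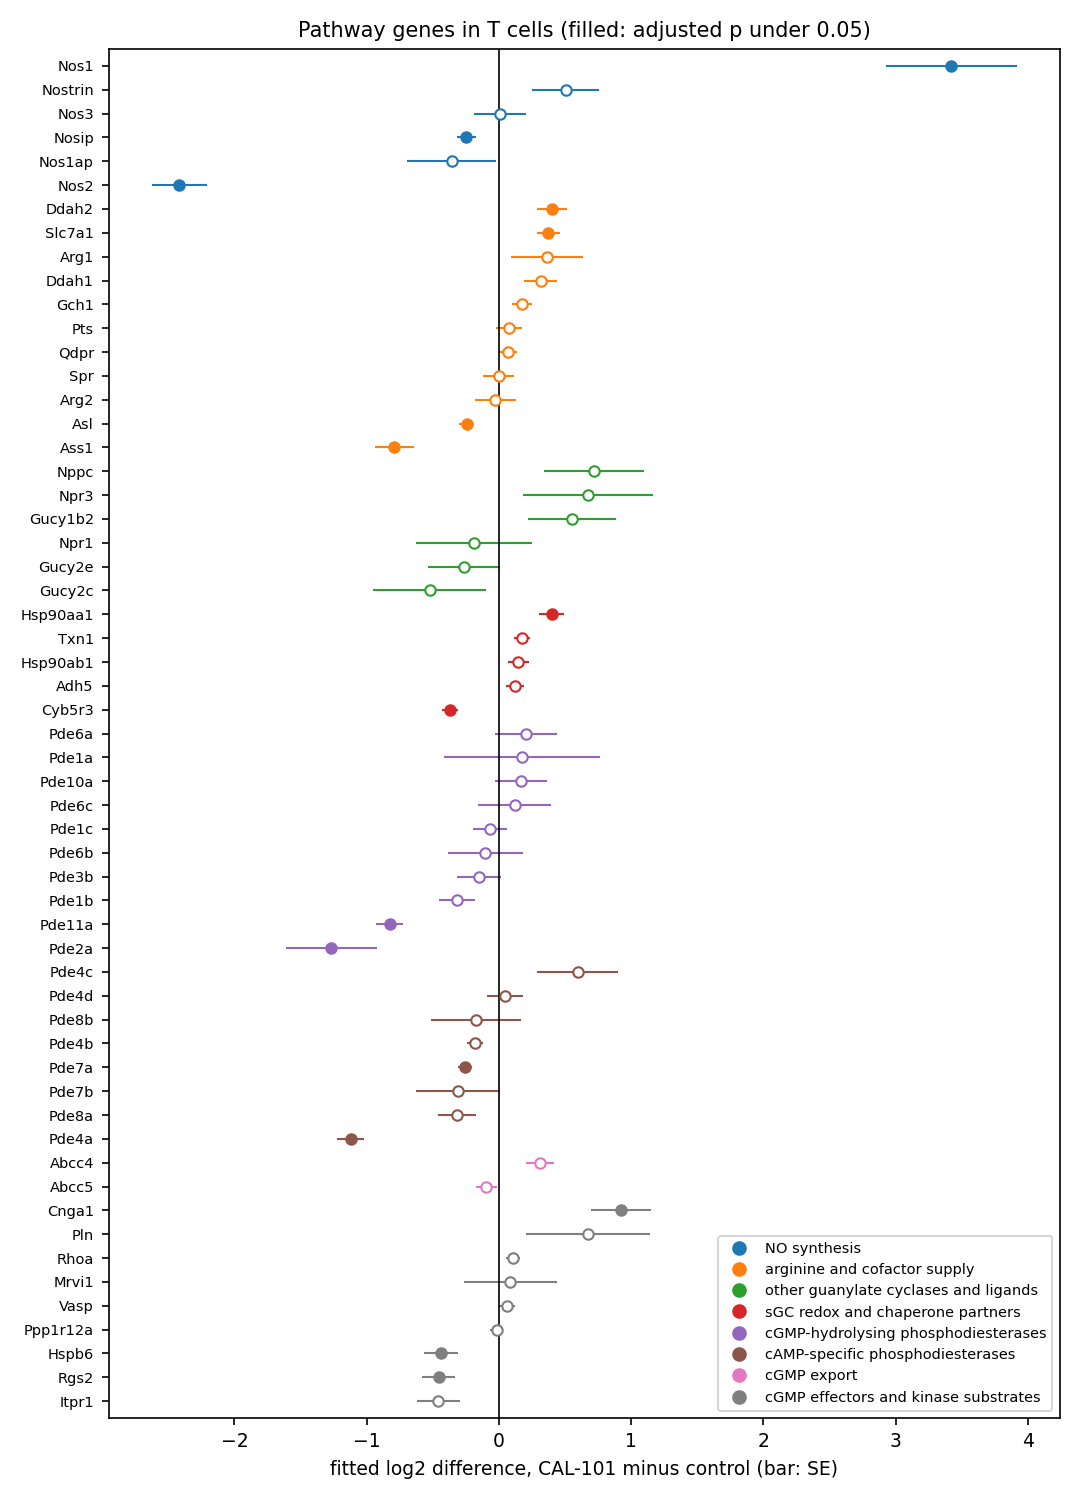
Fitted log2 difference between CAL-101 and control T cells (x axis, with SE) for the testable pathway genes, 1 of them not drawn, grouped by role. Nos1 lies at 3.42 and Nos2 at -2.42, and filled points are genes with an adjusted p under 0.05.

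In NK cells 46 pathway genes were testable, and 4 rose and 3 fell, or 15.2% against 4.89% of 14028 genes (2.97% higher, 1.92% lower). The chaperone genes Hsp90aa1 and Hsp90ab1 rose by 0.52 and 0.34 on the log2 scale, and Pde7b, which hydrolyses cAMP, by 0.80. Pde4a fell by 0.53, Ass1 by 0.56 and Nosip by 0.41. These directions for Pde4a, Ass1, Nosip and Hsp90aa1 were the same as in T cells. The calls of these 6 genes were each lost under at least 3 of the 14 alternatives, with adjusted p of up to 0.178 and no change of direction. All 6 were lost without control mouse 1 and without control mouse 3. Few genes of any kind were called then. Without control mouse 1, 10 of 14516 genes rose and 15 fell, and without control mouse 3, 4 of 14173 rose and 6 fell. The difference between NK and T cells in the effect was tested for 45 pathway genes (limma), and 0 passed, against 94 of 13901 genes (0.676%). The unadjusted limma p was under 0.05 for 11 of the 45, and the smallest adjusted p was 0.0901, for Pde4a.

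The genes whose levels ran most like each member were ranked over 74 sums per mouse and cluster and 9609 genes, by Pearson r of log2(CPM + 1). These sums share mice, libraries and depth, so r is a description. Most like Gucy1a1 were Igfbp7 (r = 0.82), AI506816 (0.79), Exph5 (0.78), Cd5, Nrp1 and Pdcd1 (0.77 each). Most like Gucy1b1 were Tcrg-C4 (0.77), Syt11, Ryk, Trib2 (0.72 each), Tcrg-C2 and Bcat1 (0.71 each). Between the 2 subunits r was 0.70. Several of these genes mark T cells against NK cells, as Cd5 and the receptor gamma genes do. Most like Prkg1 were Wwc2 (0.62), Ankfn1 (0.61), Hmga2 (0.58), Pax3 and Slc45a2 (0.57 each) and Rab38 (0.56), of which Pax3, Slc45a2 and Rab38 belong to pigment cells. Most like Pde5a were Ddx43, Shb (0.70 each), Luzp1, Nedd4l (0.69 each) and Ppargc1a (0.68).

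Within T cell clusters 1 to 5, a comparison of 30 sums added after the data were seen, Gucy1a1 and Gucy1b1 had an r of 0.79. There Gucy1a1 ran with the progenitor genes Slamf6 (0.79), Id3 (0.78) and Tcf7 (0.71) and with Tox (0.75), and against the granzyme genes Gzma (-0.73) and Gzmb (-0.63). Bach2, another gene of progenitor and memory T cells, gave -0.44. Of the other T cell state genes listed, Cxcr5 gave 0.59, Pdcd1 0.12, Havcr2 -0.40 and Prf1 -0.55. Gucy1b1 gave 0.61, 0.70, 0.58 and 0.76 with Slamf6, Id3, Tcf7 and Tox, -0.82 with Gzma and -0.41 with Bach2. For Mki67, a proliferation gene, r was 0.02 and 0.11. Over the 74 sums of all clusters, Tcf7 gave only 0.19 with Gucy1a1 and 0.39 with Gucy1b1. Over those 74 sums, Slamf6, Id3, Tox and Bach2 gave 0.60, 0.51, 0.59 and -0.12 with Gucy1a1. All of these genes were compared over the same 6 mice, 3 of them with CAL-101, so the group difference enters each r.

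Protein-coding genes next to the cyclase pair were read for the same contrast. Map9, which encodes a microtubule-associated protein and is the first gene beyond Gucy1a1, rose in T cells from 7.40 to 14.8 CPM (log2 0.96, SE 0.17, edgeR adjusted p = 0.00708). On the Gucy1b1 side, Asic5 and Tdo2 were not called, and Ctso, the next gene, rose from 14.0 to 17.7 CPM (log2 0.30, adjusted p = 0.0184). Of the other 5 neighbours in the matrices, Npy2r, Rbm46, Lrat, Fgg and Pdgfc were too low to be tested. Among all 16734 genes tested in T cells 9.46% were called higher, and the tested neighbours are too few to read a share from. In NK cells Map9 was at 3.64 and 5.41 CPM and was not called.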

How the data were processed

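The deposited matrices hold raw UMI counts per gene and cell. Per the file headers, the authors ran Cell Ranger 7.1.0. The build was mm10, and Seurat was used, per the submitters' processing notes. The sources used here do not give the annotation version, the filters on cells, any treatment of doublets or the labelling method. No deposited cell had under 500 RNA UMIs. Antibody tags were not used. The 4 genes, the 74-gene pathway list, the marker lists and the rule for named genes were chosen with earlier results of these data known. The rule names the 4 genes, each pathway gene called in T or NK cells, Nos2, Pde2a, Pde3b and Vasp, and the 6 genes of highest r with each of the 4 (mean of at least 5 CPM, sums of at least 20 cells). Nos3 and Prkg2 were added after their values were seen, and neighbours were taken by position. Of the genes this rule names, 1 pathway gene and 1 gene of high r are not reported here.

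Counts were summed per mouse and class and fitted in R 4.3.3 by the quasi-likelihood test of edgeR 4.0.16, after filterByExpr and TMM scaling and with no covariate, with Benjamini-Hochberg adjustment over all genes tested and a threshold of 0.05. Nothing in the labels ties mice to separate T cell cultures, so p-values measure the spread between these mice. Alternatives were DESeq2 1.42.0, its size factors, no filter, fewer clusters, cells filtered at 20% mitochondrial or 1000 total UMIs, thinned sums, a replicate block, each mouse left out and, added later, cells with melanoma gene UMIs left out. Effects in NK and T cells were compared with limma 3.58.1. The edgeR fit was tested on simulated data. There, true changes with a log2 size of 1 were called in 97% of cases for T cells (16734 genes) and 86% for NK cells (14028 genes). Changes of 0.585 were called in 28% and 42%, with 5 and 6 false calls. The simulation gave every gene the same fixed spread between mice and changed only genes above 1 CPM. The spread of the real mice was not modelled, so these rates need not hold in these data. Limits for a count of 0 are 3 counts and cover counting error only. Sums and shares were made in Python 3.11.15 (pandas 2.3.3, scipy 1.17.1, numpy 2.4.6), and plots in matplotlib 3.10.9. Gene positions and promoter windows are RefSeq's, GRCm38.p6, and all 4 genes matched.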

Additional observations from a re-analysis of the deposited data

How the results depend on the processing

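In T cells the direction of Gucy1a1, Gucy1b1 and Pde5a held under all 14 alternatives, with log2 differences of 1.01 to 1.48, 2.48 to 2.84 and 0.94 to 1.63. The highest for Pde5a, 1.63, came from clusters 1 to 5 alone. Prkg1 had no stable direction. With a mouse left out it ran from -0.20 (without control mouse 1) to 0.57 in T cells, with -0.06 without CAL-101 mouse 1, and from -0.70 (without CAL-101 mouse 1) to 1.05 in NK cells. With a mouse left out, Gucy1b1 in NK cells ran from 0.86 to 1.41, and it was 0.40 within clusters 0, 7, 9 and 13. As points of cells with a UMI, with a mouse left out, Gucy1a1 in NK cells ran from -0.0570 (without CAL-101 mouse 3) to 0.343 and Prkg1 in T cells from -0.0128 (without control mouse 1) to 0.103. Gucy1b1 in cells with a Gucy1a1 UMI minus the rest was -1.36 points in CAL-101 cluster 2 at 3000 UMIs (control cluster 2 gave 0 of 38 cells against 0.287% at 1600 UMIs) and -0.122 in cluster 5 at 1600 UMIs. The cause of these shifts was not tested.

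Of the pathway list in T cells, DESeq2 called 8 genes higher, and with a mouse left out 1 to 6 rose and 5 to 11 fell. In NK cells 1 rose within clusters 0, 7, 9 and 13 and 2 with sums thinned to 1 total, and with a mouse left out 0 to 5 rose and 0 to 9 fell. Of all genes in NK cells, 416 rose and 270 fell. These counts were 113 and 100 within those clusters, 747 and 576 with no filter and 267 and 194 with thinned sums. A replicate block gave 297 and 176. They were 1 and 3 without CAL-101 mouse 3 and 923 and 666 without control mouse 2. Without control mouse 1 they were 10 and 15, and without control mouse 3, 4 and 6. In T cells 1583 rose and 1611 fell, against 664 and 765 without control mouse 3, 837 and 875 without control mouse 1 and 839 and 801 without CAL-101 mouse 3. Replicate numbers did not pair the mice (r between same-numbered mice of -0.25, -0.24 and 0.01 in T cells). With a replicate block, 2 pathway genes rose and 5 fell in T cells, and of all genes 728 rose and 767 fell. Depth limits Prkg1 (323 UMIs in T cells) and Pde5a (407).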
